A study of Mus musculus with 12 samples.

Results

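Dmkn, the gene of dermokine, was described here together with 9 genes that mark the mesothelium, namely Msln, Muc16, Upk3b, Upk1b, Wt1, Lrrn4, Krt19, Krt8 and Krt18. They were picked by gene name among the 22765 genes tested on aortic microarrays, so that the question of whether Dmkn follows a serosal tissue component could be addressed. Dmkn was chosen from its difference between smSocs3-KO and WT aortas before challenge, and that difference is therefore given as a description without a test. All 10 genes were on the array, represented by 12 probes, and all 10 passed the filter on dim probes. The probes that stood for 8 of the 10 genes were well above background on all 12 arrays, whereas those for Upk1b and Lrrn4 missed this on 1 array, WT day 3 replicate 3.

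Aortic RNA of male mice of mixed strain (129S5/SvEvBrd, C57BL6 and SJL) was hybridised to 12 one-colour arrays, 3 for each combination of genotype and challenge. The smSocs3-KO mice were homozygous for a floxed Socs3 allele and carried SM22-Cre, a recombinase transgene driven by a smooth muscle promoter. The WT mice were their littermates with the same floxed alleles and no Cre. Challenged mice received BAPN, an inhibitor of lysyl oxidase, at 150 mg/kg/day and the pressor hormone AngII at 1000 ng/kg/min from minipumps for 3 days, a combination that induces aortic dissection. Mice before challenge received neither agent. The labels give no age and do not say whether each array holds 1 animal, so p-values measure the spread between arrays only. The deletion did not show in the targeted gene, as Socs3 was at 0.24, 1.14 and 1.46 under the smSocs3-KO label before challenge against 0.30, 0.32 and 0.75 in WT (log2, relative to the 75th percentile of the array). At day 3 it was at 3.31, 2.28 and 4.13 against 2.21, 2.30 and 0.64, a difference of 1.52 (limma adjusted p = 0.21). Whether its probe lies in the deleted part is not given in the sources used here. The group names below are therefore those of the labels. All 6 WT arrays and smSocs3-KO replicate 1 before challenge shared 1 slide, and a different slide carried the remaining 5 smSocs3-KO arrays. Between 55.4% and 61.2% of the spots on an array were well above background, and no spot was saturated.

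The mesothelium is the flat epithelium that covers the pleura, the pericardium and the peritoneum and the organs within them. It makes proteins of the glycocalyx and of the apical membrane, among them mesothelin, its binding partner Muc16 and the uroplakins, and it keeps the simple epithelial keratins although it is of mesodermal origin, with Wt1 as its characteristic transcription factor. Dermokine is a secreted protein known from the upper layers of the epidermis. Its gene lies between Sbsn and Krtdap, both also known from epidermis, in the gene order of the RefSeq table for GRCm38.p6. The aortic wall itself has no mesothelium, but the serosa that covers parts of the vessel and its surrounding tissue does.

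The sequences behind the Dmkn measurement show which transcripts it covers. Its 2 probes of 60 bases overlap by 55 bases on chromosome 7 (mm9, + strand), and the array annotation lists 4 RefSeq transcripts for each, of the 5 protein-coding ones in the RefSeq table, so that neither probe reads a single isoform. The last 30 bases of each are printed 5′ to 3′ with the polyadenylation hexamer AATAAA in capitals, first for the probe at chr7:31566013-31566072 that stood for the gene and then for the one at chr7:31566018-31566077.

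Dmkn probe, 1: gtttctctgtggaAATAAAacatgactctt
Dmkn probe, 2: tctgtggaAATAAAacatgactctttgttt

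For comparison, the Msln probe at chr17:25885569-25885628 (mm9, - strand) also ends around this hexamer and is shown because Msln is the defining gene of the marker group.

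Msln probe: ggactcttgaactcAATAAAcagtggcata

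RefSeq places starts of Dmkn transcripts at separate sites, and the 250 bases before 2 of them are printed here, since probes at the 3′ end do not tell which start was used. The RefSeq positions are on GRCm38.p6, another build than the mm9 positions of the probes, at chr7:30763506-30763755 and chr7:30776155-30776404, both on the + strand. Capitals mark matches to TGANTCA, the letters of an AP-1 site, searched on both strands.

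Dmkn, upstream start: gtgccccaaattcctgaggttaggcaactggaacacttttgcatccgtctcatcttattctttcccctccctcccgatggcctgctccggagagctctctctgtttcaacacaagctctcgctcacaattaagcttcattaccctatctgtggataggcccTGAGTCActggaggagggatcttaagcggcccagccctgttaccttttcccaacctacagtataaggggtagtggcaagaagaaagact
Dmkn, downstream start: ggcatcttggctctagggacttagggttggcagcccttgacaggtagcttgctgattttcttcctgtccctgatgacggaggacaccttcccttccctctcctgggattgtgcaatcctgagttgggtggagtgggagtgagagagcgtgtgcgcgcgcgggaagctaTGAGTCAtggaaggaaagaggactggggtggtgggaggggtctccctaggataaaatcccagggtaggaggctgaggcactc

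Each held 1 match, at position -89 of the former and -82 of the latter counted from the start site, and the motif was chosen after these sequences had been read. Of 32851 promoters in the table, 6.75% held the same letters within these 250 bases. Among the members 6 had entries, and a match was found in Dmkn but not in Upk3b, Krt8, Krt18, Lrrn4 or Muc16. TTCNNNGAA, the letters of a STAT site, which 7.02% of all promoters held, was not found in this window in any of the 6, nor were the TATA box letters TATAAA, which 12.4% held. Msln, Upk1b, Wt1 and Krt19 had no entry.

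Dmkn separated the 2 labels on every array. Scaled in this way, Dmkn was at -0.91, -2.13 and -2.26 (log2) in WT before challenge and at 1.13, -1.05 and -1.33 in WT at day 3. Under the smSocs3-KO label it was at 3.94, 3.49 and 4.13 before challenge and at 3.63, 3.18 and 5.19 at day 3. All 6 smSocs3-KO arrays were above all 6 WT arrays, and the highest WT array was replicate 1 at day 3. The processed signal itself, before any scaling, was 64.1 to 134 intensity units in WT before challenge and 2750 to 6448 units under the smSocs3-KO label before challenge. The difference before challenge, which chose the gene, was 5.62 ± 0.68 (log2, SE, n = 3 a group), or 49.1-fold. The other probe gave nearly the same levels, with a mean of -1.89 ± 0.77 (SD, n = 3) in WT before challenge and 3.66 ± 0.32 under the smSocs3-KO label. Since the probes share 55 of 60 bases, they are not separate evidence.

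The day 3 arrays did not enter the contrast that chose Dmkn, and the same measure was tested on them. Their results were known when these genes were put together, so the p-values at day 3 are not independent evidence. There Dmkn was higher under the smSocs3-KO label by 4.42 ± 0.68 (log2, SE), or 21.4-fold, with an adjusted p of 0.018 by limma over all genes. At that threshold 1.11% of the genes were called in this comparison, and at the study's threshold (unadjusted p below 0.01 and a fold change above 4 or below 0.25) 1.11% also were. The size held in each alternative, between 3.82 and 5.19, but the call did not. The adjusted p was 0.0691 without smSocs3-KO replicate 5, 0.0686 without WT replicate 3, 0.105 when only the 6 day 3 arrays were fitted and 0.231 with the slide as a block. At day 3 each label was on a slide of its own, so label and slide cannot be told apart there, and the blocked value rests on the single smSocs3-KO array that shared the WT slide.

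**Figure D1:**
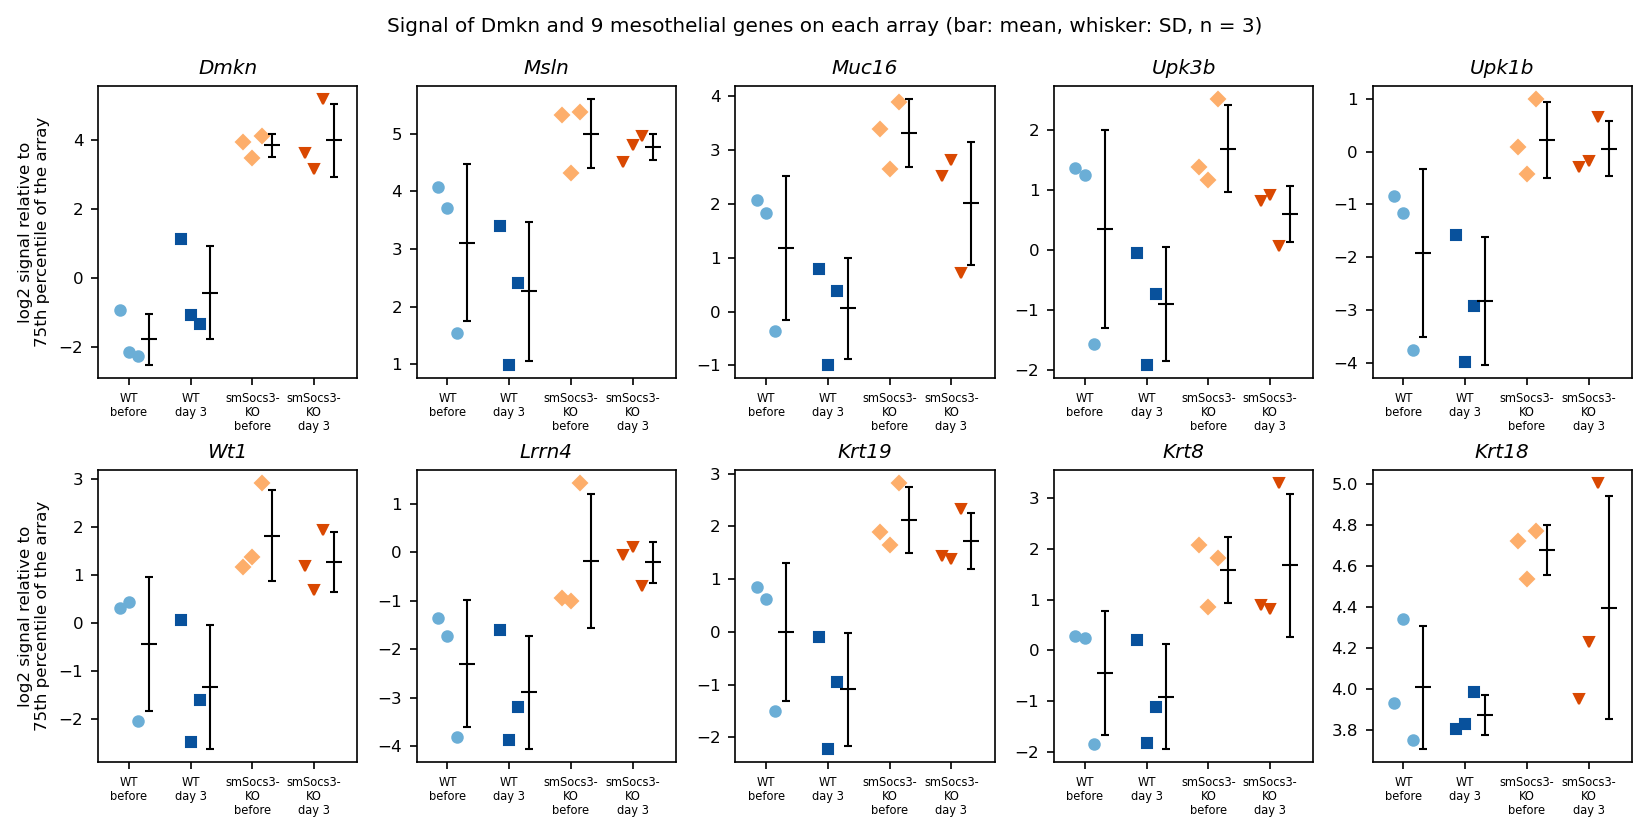
Log2 signal relative to the 75th percentile of the array (y axis) on each of the 3 arrays of the 4 groups (x axis), 1 panel a gene, with the mean (bar) and SD (whisker) beside the points; y axes differ between panels. Dmkn has a gap between the labels, from 1.13 to 3.18, whereas the other panels have narrower gaps or overlap.

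The glycoproteins of the mesothelial surface were also higher under the smSocs3-KO label, but by less and with wide spread among the WT arrays. Msln, the gene of the cell surface protein mesothelin, was at 4.07, 3.71 and 1.54 in WT before challenge and at 3.40, 0.98 and 2.41 in WT at day 3 (log2 signal). On the smSocs3-KO arrays Msln was at 5.32, 4.31 and 5.37 before challenge and at 4.52, 4.81 and 4.96 at day 3. The labels did not overlap at either time, and the span within WT before challenge, from 1.54 to 4.07, was larger than the mean difference of 1.89 ± 0.69 between the labels there. Muc16, the membrane mucin that binds mesothelin, was at 2.06, 1.83 and -0.37 in WT before challenge and 0.79, -0.99 and 0.38 at day 3. Its smSocs3-KO values were 3.39, 2.65 and 3.89 before challenge and 2.50, 2.81 and 0.71 at day 3. The last of these, replicate 5, was below the highest WT array at day 3, so the Muc16 groups overlapped there, on the array where Dmkn was highest.

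Uroplakins, the proteins of urothelial plaques that mesothelium also makes, differed between their 2 members. Upk3b was at 1.37, 1.25 and -1.56 in WT before challenge and at 1.40, 1.17 and 2.52 under the smSocs3-KO label. The groups overlapped, with smSocs3-KO replicate 3 below 2 of the WT arrays. At day 3 Upk3b was at -0.04, -1.92 and -0.73 in WT and at 0.82, 0.93 and 0.07 in smSocs3-KO, without overlap. Upk1b, a tetraspanin partner of the uroplakins, was at -0.85, -1.16 and -3.75 in WT before challenge against 0.09, -0.43 and 0.99 in smSocs3-KO, without overlap. At day 3 it was at -1.57, -3.995 and -2.93 against -0.29, -0.18 and 0.65, again without overlap.

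Wt1, a zinc finger transcription factor of mesothelium and podocytes, was at 0.31, 0.43 and -2.05 in WT before challenge and 1.18, 1.38 and 2.92 in smSocs3-KO. At day 3 its values were 0.06, -2.48 and -1.60 in WT and 1.20, 0.69 and 1.94 in smSocs3-KO. Lrrn4, a leucine-rich repeat membrane protein, was at -1.36, -1.72 and -3.80 in WT before challenge against -0.95, -0.99 and 1.42 in smSocs3-KO, where 1 array stood far above the other 2. At day 3 Lrrn4 was at -1.59, -3.88 and -3.19 in WT and -0.05, 0.11 and -0.69 in smSocs3-KO. Neither gene had overlapping labels at either time.

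The keratins pair as type I (Krt18, Krt19) and type II (Krt8) chains of the intermediate filaments of simple epithelia. Krt19 was at 0.86, 0.63 and -1.50 in WT before challenge and at 1.90, 1.64 and 2.82 in smSocs3-KO. It was at -0.09, -2.22 and -0.95 in WT at day 3 and at 1.44, 1.38 and 2.34 in smSocs3-KO, without overlap at either time. Krt8 was at 0.28, 0.25 and -1.84 in WT before challenge and 2.07, 0.85 and 1.82 in smSocs3-KO, and at day 3 at 0.21, -1.82 and -1.12 against 0.90, 0.82 and 3.28. The other Krt8 probe, which missed the background criterion on 2 WT arrays, was lowest in WT at day 3 (-3.48 ± 2.04, SD, n = 3) and highest under the smSocs3-KO label before challenge (0.03 ± 0.49). Krt18 stood apart from its partner in size. It was at 3.93, 4.34 and 3.75 in WT before challenge and 4.72, 4.54 and 4.77 in smSocs3-KO, and at day 3 at 3.80, 3.83 and 3.99 against 3.95, 4.23 and 5.004 with overlap.

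Before challenge the 9 marker genes had a median difference of 2.12 (smSocs3-KO minus WT, log2), from 0.67 for Krt18 to 2.26 for Wt1, while the median over all genes was 0.0042. All 9 were higher in mean and 8 did not overlap, against 6.48% of all genes that did not overlap in this direction. None of the 9 passed the adjusted threshold, which 0.0264% of all genes did, and Krt19 passed the study's threshold, which 0.242% did. Because these arrays were in the contrast behind the choice, nothing is read from these counts. At day 3 the marker median was 2.58, from 0.52 for Krt18 to 2.89 for Upk1b, beside a median of -0.08 over all genes. All 9 were again higher in mean, and 7 did not overlap (7.87% of all genes), with Muc16 and Krt18 as the exceptions. None passed the adjusted threshold, with adjusted p from 0.077 for Krt19 to 0.353 for Upk3b. At the study's threshold, which 1.11% of all genes passed, 6 of the 9 were called, namely Msln, Upk1b, Wt1, Krt19, Krt8 and Lrrn4, or 7 of 10 with Dmkn. This count was 2 of 10 without WT replicate 3 at day 3, the array lowest in the markers, 3 without WT replicate 4, 3 without smSocs3-KO replicate 5 and 1 with the slide as a block. In bulk aortic tissue, fewer cells of a type and less RNA per cell cannot be told apart.

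Within the slide that held WT arrays and a single smSocs3-KO array before challenge, that array could be set against the 3 WT arrays, without a test. Its Dmkn signal was 5.71 (log2) above the WT mean. For the markers the same difference was 2.21 for Msln, 2.21 for Muc16, 2.51 for Krt8, 2.01 for Upk1b, 1.91 for Krt19, 1.61 for Wt1, 1.35 for Lrrn4, 1.04 for Upk3b and 0.72 for Krt18. All were positive, but for Upk3b the array was at 1.40 while the highest WT array was at 1.37.

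At day 3 the WT means of the 9 markers were below those before challenge and that of Dmkn was above, but none of the 10 genes passed a threshold. The median response of the 9 markers was -0.91 in WT, with 0 of 9 above 0, and -0.28 under the smSocs3-KO label, with 1 of 9 above 0. The WT values ranged from -1.25 for Upk3b to -0.13 for Krt18 (adjusted p from 0.306 to 0.763 by limma). Dmkn differed by 1.35 ± 0.68 in WT, where 1 array (replicate 1) set most of the difference, and by 0.15 ± 0.68 under the smSocs3-KO label. Both Dmkn values share arrays with the contrast that chose it and were not used as tests. In these comparisons 4.68% (WT) and 2.45% (smSocs3-KO) of all genes passed the adjusted threshold, and 1.28% and 1.63% passed the study's threshold. Without WT replicate 3 before challenge, the array lowest in the markers there, the WT marker median was -1.71 and 1 of the 10 genes passed the study's threshold. Groups that did not overlap with the lower values at day 3 made up 14.6% of genes in WT and 14% in smSocs3-KO, and Upk3b under the smSocs3-KO label was the single member among them. The test of whether the response differed between the labels (interaction) called 0 of the 10 and 0% of all genes at the adjusted threshold, with limma, while 1215 genes had an unadjusted p under 0.05 and none of the members did. For the markers the interaction ranged from -0.18 for Muc16 to 0.75 for Upk1b.

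**Figure D2:**
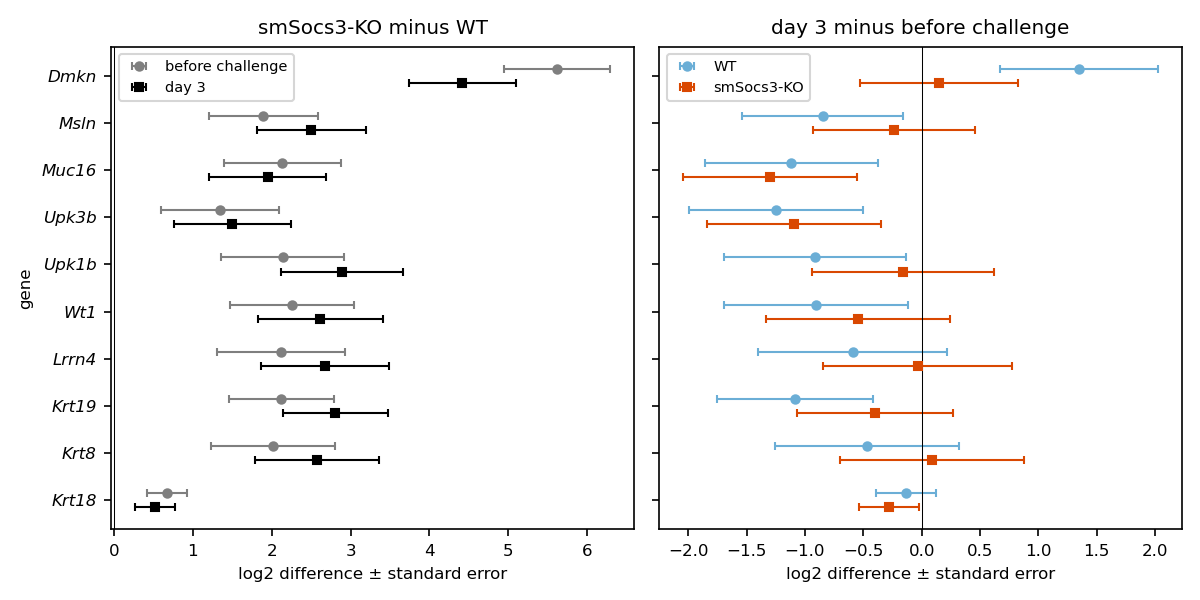
Log2 differences ± SE of each gene from the 4-group model: on the left smSocs3-KO minus WT before challenge and at day 3, on the right day 3 minus before challenge within each label. Dmkn differs between the labels by 5.62 and 4.42, the markers by at most 2.89, and the challenge differences range from -1.30 for Muc16 to 1.35 for Dmkn.

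Setting each gene against its own WT mean before challenge put Dmkn and the markers on a common scale of log2 differences. On this scale the mean of the 9 markers was 0.79, 0.67 and -1.46 on the WT arrays before challenge and 0.16, -1.78 and -0.81 in WT at day 3. It was 1.73, 1.28 and 2.55 in smSocs3-KO before challenge and 1.27, 1.34 and 1.63 at day 3. The corresponding values of Dmkn were 0.86, -0.36 and -0.49, then 2.90, 0.72 and 0.43, then 5.71, 5.25 and 5.89, and finally 5.398, 4.94 and 6.96. Among the WT arrays before challenge, replicates 2 and 3 were near each other in Dmkn (-0.36 and -0.49) and far apart in the marker mean (0.67 and -1.46). The difference between Dmkn and the marker mean was 0 by construction in WT before challenge (SD 0.999), 2.16 ± 0.80 in WT at day 3, 3.76 ± 0.36 in smSocs3-KO before challenge and 4.35 ± 0.88 at day 3 (SD, n = 3). On each smSocs3-KO array Dmkn exceeded the marker mean by at least 3.34 (log2). The largest excess among WT arrays was 2.74. Dmkn was chosen for its label difference before challenge, and the WT arrays of that contrast set the zero of this scale. Its excess over the markers on the smSocs3-KO arrays is therefore a description, and nothing is read from it.

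**Figure D3:**
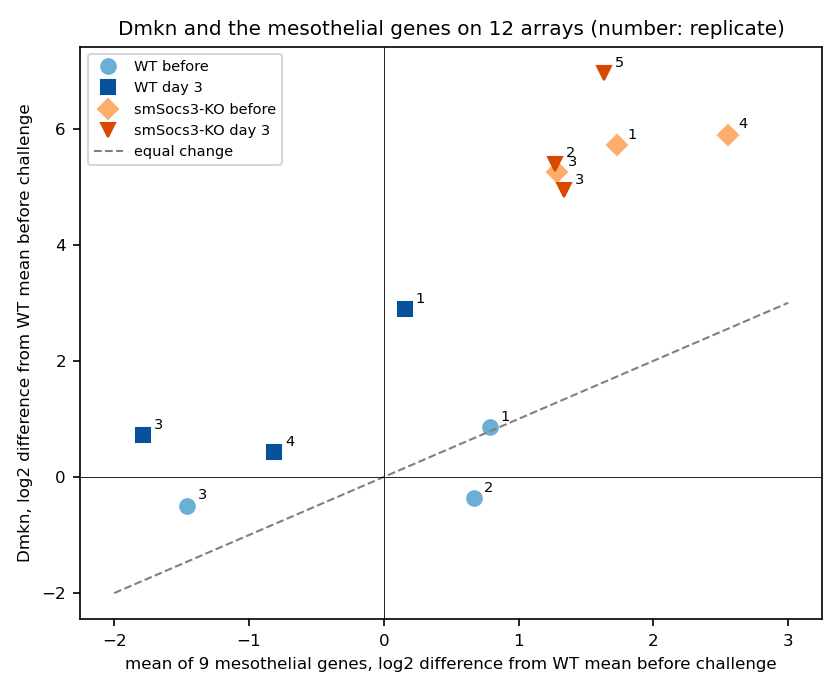
Dmkn (y axis) against the mean of the 9 mesothelial genes (x axis) on 12 arrays, both as log2 difference from the WT mean before challenge, with the replicate number beside each point and a dashed line of equal change. The smSocs3-KO arrays lie between 4.94 and 6.96 on the Dmkn axis and between 1.27 and 2.55 on the marker axis, all above the line, while the WT arrays lie between -0.49 and 2.90 for Dmkn and between -1.78 and 0.79 for the markers. Dmkn was chosen for its label difference before challenge, so its place above the line is a description.

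Since the arrays form 2 clusters by label in Dmkn, its relation to the markers is given within each label, as a description over 6 arrays that share a label and in part a slide. Over the 6 WT arrays Pearson's r between Dmkn and the marker mean was 0.24 and Spearman's rho was 0.31, and r was -0.08 without the 2 arrays farthest from the median of the marker mean. Over the 6 smSocs3-KO arrays r was 0.39 and rho was 0.60, and r was 0.93 without the 2 farthest arrays. With 1 array left out, r ranged from 0.03 (without replicate 3 before challenge) to 0.55 (without replicate 2 before challenge) in WT and from 0.29 (without replicate 3 at day 3) to 0.82 (without replicate 5 at day 3) in smSocs3-KO. Over the deviations of all 12 arrays from their group means, r between Dmkn and the marker mean was 0.62 and rho 0.66, and r was 0.52 without the 2 farthest arrays. Among the single markers this r ran from 0.10 for Muc16 to 0.81 for Krt8, with 0.71 for Wt1 and 0.70 for Upk1b, and over the marker pairs its median was 0.81. The markers followed each other more closely in WT, where the median r over their 36 pairs was 0.97 (0.43 to 0.99), than they followed Dmkn, for which the median was 0.28 (-0.39 to 0.43). Under the smSocs3-KO label the medians were 0.51 over the pairs and 0.58 with Dmkn. The single marker nearest to Dmkn there was Krt8, with r = 0.96, and the most opposed was Muc16, with r = -0.59. The relation of Muc16 rests on the farthest arrays, since r was 0.57 without them.

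A ranking of genes by their likeness to Dmkn over the 12 arrays is given as a description, since the label difference that chose Dmkn dominates it. The 10 most alike among 13654 genes were C4bp (r = 0.960), Hdc, Ecel1, Wnt4, Mapk13, Rnf128, Lcn2, Slc39a8, C3 and Gfra1 (r = 0.911). Between 34 genes (for Krt8) and 1237 genes (for Upk3b) ranked above the single markers. C4bp, a regulator of complement, Ecel1 and Gfra1 were not well above background on any WT array before challenge and passed the filter through the smSocs3-KO arrays. Hdc, the enzyme that makes histamine, had a group mean of -1.86 in WT and 1.11 in smSocs3-KO before challenge, and Wnt4, a secreted ligand, had means of -3.22 and -0.23. Once the group means were removed, the closest genes were Zbtb7c (r = 0.972), Krt81, Cyp4f18, Rnf128, Pear1, Ppp1r13l, Fcgr4, Stk36, Sprr1a and B3gnt3 (r = 0.845). Sprr1a among these was not well above background on any WT array before challenge. Rnf128, a ubiquitin ligase, was in both groups of 10.

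The further mesothelial genes, a list of 12 of which 11 were tested, had median differences in the same direction as the 9 markers and of smaller size. Prg4 of this list differed by more than any of the 9 markers, by 3.35 before challenge and 3.81 at day 3. Before challenge 10 of the 11 were higher in mean under the smSocs3-KO label (median 1.11), as were 50.6% of all genes. At day 3 9 of 11 were (median 1.32), as were 40.5% of all genes, and 6 did not overlap (7.87% of all genes). The single call at the adjusted threshold, which 1.11% of all genes passed at day 3, was Prg4 at day 3. Prg4, the gene of the boundary lubricant lubricin, was at 2.54, 2.83 and 0.43 in WT and 4.89, 5.76 and 6.57 in smSocs3-KO, a difference of 3.81 (adjusted p = 0.022). This call held in 16 of 22 alternatives and was lost with the slide as a block (3.35, adjusted p = 0.256), and without smSocs3-KO replicate 3 (adjusted p = 0.0595) or 5 (adjusted p = 0.0946). Prg4 was also higher at day 3 than before challenge, by 2.68 in WT (adjusted p = 0.040) and 3.14 in smSocs3-KO (adjusted p = 0.035). Each of these challenge calls held in 11 of 22 alternatives, with adjusted p up to 0.428 in WT and 0.584 in smSocs3-KO, and the WT difference was 0.78 with the mean of the probes. The WT call was lost without any 1 of the 3 WT arrays before challenge, WT replicate 1 or 3 at day 3, smSocs3-KO replicate 4 before challenge or smSocs3-KO replicate 3 at day 3. The smSocs3-KO call was lost without any 1 of the 3 WT arrays before challenge, smSocs3-KO replicate 1 or 3 before challenge, or smSocs3-KO replicate 3 or 5 at day 3. Nkain4 was 1.87 higher in mean at day 3 (adjusted p = 0.078), and Tm4sf5 differed by -0.48. The log2 of the summed level of the list lay between 3.59 and 4.55 in WT and between 5.14 and 6.18 in smSocs3-KO before challenge. At day 3 it lay between 3.899 and 5.17 in WT and between 6.39 and 7.28 in smSocs3-KO. Linear levels were summed, so the brightest genes weigh most. On smSocs3-KO replicate 5 at day 3, Prg4 was at 6.57 and Pdpn at 5.37, and no other gene of the list was above 2.83. Both had higher WT means at day 3 than before challenge, by 2.68 for Prg4 and 0.98 for Pdpn, so the sum does not stand for the whole list.

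Markers of other cells were set beside this. Of 17 genes of epidermis and stratified epithelium, 8 were tested, and the keratinocyte genes Krt5, Krt1 and Krtdap were not among them because their probes were not well above background in any whole group. The epidermal list had a median difference of 0.29 before challenge and -0.01 at day 3. Its summed log2 level was 4.96 to 5.28 in WT and 5.16 to 5.54 in smSocs3-KO before challenge. Trp63 and Perp set most of this sum, with WT means before challenge of 4.08 and 3.87 against 0.54 for Sbsn, the next brightest, so it says little about the other genes. At day 3, 4 of the 8 were higher in mean under the smSocs3-KO label, as were 40.5% of all genes. Of these, 2 were called, beside 1.11% of all genes. Krt2 (-0.69) and Trp63 (-0.51) were lower without overlap. The share of all genes that were lower without overlap at day 3 was not counted, so nothing is read from this. Sbsn, the neighbour of Dmkn and the gene of suprabasin, was at 0.19, 0.27 and 0.59 in WT and at 1.46, 1.56 and 2.39 in smSocs3-KO, a difference of 1.45 (adjusted p = 0.032). Krt14, a keratin of basal epidermis, differed by 2.43 (adjusted p = 0.032). With normexp background the Krt14 difference was 1.23 and was not called (limma adjusted p = 0.0823). Each call held in 11 of 22 alternatives and was lost with the slide as a block (adjusted p = 0.259 for Sbsn and 0.272 for Krt14). Both were also lost without WT replicate 1 or 2 before challenge, WT replicate 1 or 3 at day 3 or smSocs3-KO replicate 3 or 5 at day 3, and that of Sbsn also without WT replicate 3 before challenge. Lor, a protein of the cornified envelope, differed by -0.99 and Sfn by 0.06.

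Among 9 genes of simple epithelium, 5 were tested, with a median of 0.17 before challenge and -0.14 at day 3. Krt7, which mesothelium also expresses, had the largest difference at day 3, 2.67 (adjusted p = 0.115), and Cldn7 the smallest, -0.48. Smooth muscle, the main cell of the media, showed a median of -0.02 before challenge and -0.27 at day 3 over 6 genes, and its summed log2 level was 11.4 to 11.5 in WT and 11.2 to 11.8 in smSocs3-KO before challenge. The day 3 levels were 11.03 to 11.36 in WT and 10.73 to 10.98 in smSocs3-KO. Over 6 fibroblast genes the median was 0.06 before challenge and 0.39 at day 3, where Dpt (1.99, adjusted p = 0.023) and Pi16 (1.64, adjusted p = 0.047), both known from adventitial fibroblasts, were higher and Col1a1 differed by -0.46. These were 2 calls among 6 genes, beside 1.11% of all genes. With the slide as a block they were lost (adjusted p = 0.289 for Dpt and 0.259 for Pi16). They held in 15 and 9 of 22 alternatives, and both were lost without WT replicate 1 or 3 or smSocs3-KO replicate 3 or 5 at day 3. That of Pi16 was also lost without any 1 of the 3 WT arrays before challenge or smSocs3-KO replicate 1 or 3 before challenge. The summed fibroblast level at day 3 was 9.41 to 9.66 in WT and 9.72 to 10.2 in smSocs3-KO. Fat genes, of which 6 of 7 were tested, had medians of -0.21 and 0.998, and none was called at the adjusted threshold. Cavity macrophage genes had medians of 0.07 and 0.32 and lymphocyte genes -0.02 and 0.39. Endothelial genes had medians of -0.14 and -0.43, striated muscle genes 0.12 and 0.08, and no gene of these 4 lists was called between the labels at either threshold. At day 3 the single genes ran from Ucp1 (-1.64) to Adipoq (1.23) in fat, from Tagln (-0.37) to Lmod1 (-0.06) in smooth muscle, from Kdr (-0.77) to Pecam1 (0.76) in endothelium and from Acta1 (-0.85) to Tnnt2 (0.91) in striated muscle. They ran from Icam2 (-0.48) to F5 (0.92) in the cavity macrophage list and from Cd3e (-0.37) to Cd3g (0.88) in the lymphocyte list. Scgb1a1 of the lung list, Aqp2 of the kidney list (0.14) and Cyp21a1 (0.33) and Star (1.15) of the adrenal list were measured as well. Of the lung, kidney and adrenal lists, 1 of 5, 1 of 5 and 2 of 6 genes were tested. None was called between the labels at the adjusted threshold, although Scgb1a1, a lung airway gene, differed by -2.81 at day 3 and passed the study's threshold. Before challenge Scgb1a1 differed in the other direction, by 1.69. The part of any of these cells in the Dmkn and marker differences was not tested.

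Of 4 secreted acute phase genes, listed as also expressed by mesothelium, 3 were called at day 3 at the adjusted threshold, which 1.11% of all genes passed. The list was put together with earlier results known, and Lcn2 and C3 were among the 10 genes most like Dmkn. The protease inhibitor Slpi differed by 4.74 before challenge and 5.53 at day 3 (adjusted p = 0.084 at day 3), and the siderophore-binding Lcn2 by 4.31 and 3.98 (adjusted p = 0.030 at day 3). Saa3, a serum amyloid, differed by 8.82 at day 3 (adjusted p = 0.032). Its probe was well above background on 2 of the 3 WT arrays there and on none before challenge. It passed the filter only through the smSocs3-KO arrays, where it was high, so nothing is read from its call. C3, the central complement component, differed by 1.82 before challenge and by 1.79 at day 3 (adjusted p = 0.0072). The differences before challenge are descriptions, since those arrays were in the contrast behind the choice. The 3 day 3 calls were lost with the slide as a block (adjusted p = 0.221 for C3, 0.267 for Lcn2 and 0.438 for Saa3) and held in 20 of 22 alternatives for C3, 12 of 22 for Lcn2 and 8 of 21 for Saa3. The difference of Saa3 was 3.96 with the slide as a block. No single array ended the call of C3, whereas that of Lcn2 was lost without any 1 of the WT arrays before challenge, WT replicate 3 at day 3 or smSocs3-KO replicate 2 or 5 at day 3, and that of Saa3 without any 1 of the WT arrays before challenge or of the 6 day 3 arrays.

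**Figure D4:**
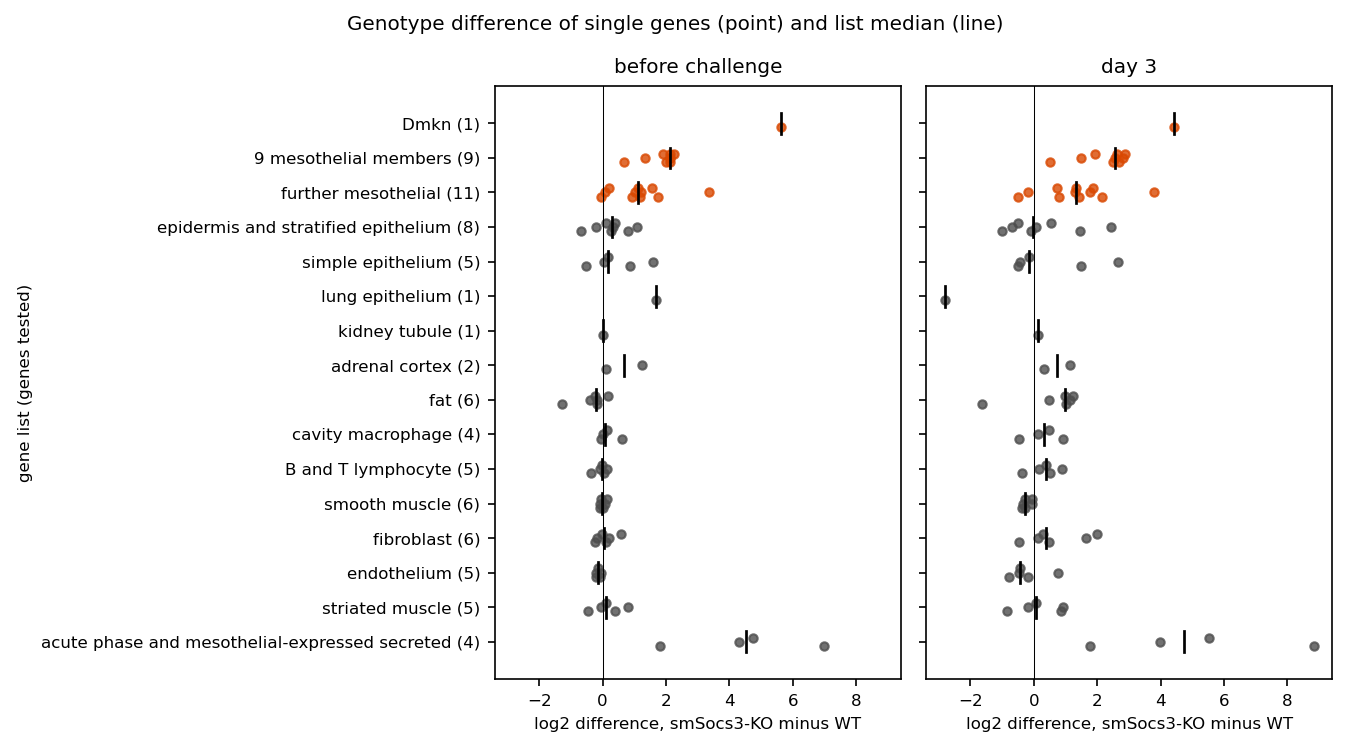
Log2 difference, smSocs3-KO minus WT, of single genes (points) and list median (line), before challenge on the left and at day 3 on the right, with the number of genes tested in brackets. Dmkn, the 9 members and the further mesothelial genes are in orange. Medians of smooth muscle, endothelium and lymphocytes lie between -0.43 and 0.39, against 2.12 and 2.58 for the 9 members. The adrenal list, with 2 genes tested, is at 0.67 before challenge and 0.74 at day 3. The lung list, with 1 gene tested, is at 1.69 and -2.81. The acute phase list, of genes listed as also expressed by mesothelium, has medians of 4.52 before challenge and 4.75 at day 3. These medians include Saa3, which passed the filter only through the smSocs3-KO arrays, so the list is not ranked against the members. Fat is at 0.998 at day 3.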

How the data were processed

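Aortic gene expression was measured on 12 arrays with groups and replicate numbers from the sample labels. The authors deposited scanner output per array, with a processed intensity per spot on a linear scale after background subtraction (Feature Extraction 10.7.1.1 per the file headers, 9.5.1.1 per the submitters' processing notes), and background, outlier and saturation flags. A spot was well above background when it exceeded the background by 13 SD of it. The authors also deposited a table of intensity values, quantile normalized, whose Spearman correlation with the scanner values was at least 0.99997, used as an alternative.

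Log2 of the deposited processed intensity was taken from spots that were neither controls nor outliers, each probe's spots were averaged, and values were set against the 75th percentile of their array. The filter asked that a probe be well above background on all 3 arrays of 1 or more groups (32287 of 55681 probes), and a gene was represented by its brightest probe that passed. All 22765 genes were fitted with limma 3.58.1 (R 4.3.3) as 4 group means, with Benjamini-Hochberg adjustment over all genes and a threshold of 0.05. Array counts limit the precision: an exact permutation test of 3 against 3 cannot go below p = 0.10 and was not used. The model was also run on simulated data with independent genes and no slide effect, unlike these arrays. Replicate numbers were checked for pairing between groups. Correlations of deviations ran from -0.40 to 0.46 over 11 pairs of arrays with the same number. They ran from -0.43 to 0.48 over 43 pairs with different numbers. The arrays were therefore not treated as paired, although so few pairs cannot exclude pairing, and replicate number was fitted as a block among the alternatives. The 10 members, the gene lists and the tests were chosen with earlier results of these data known. Named genes are the members, the 10 most alike over 12 arrays and over deviations from group means (symbols of clones and predicted genes left out), the largest and smallest day 3 difference of each list, and Socs3, Slpi and Lcn2. Other genes named, Sbsn, Krtdap, Krt5, Krt1, Krt2, Trp63, Perp, Pdpn, Nkain4, Pi16 and Sfn, were chosen after their values were seen. Gene names are those of the array design. Gene models on mm9 were not used here, so exon and UTR positions are not given. Alternatives covered background correction, normalization, filter, probe choice, moderation, slide, replicate number, arrays fitted and each array left out.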

Additional observations from a re-analysis of the deposited data

How the results depend on the processing

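Dmkn was higher under the smSocs3-KO label in all 22 alternatives, by 4.76 to 6.05 before challenge (lowest with normexp background, 4.761) and by 3.82 to 5.19 at day 3. The day 3 call at the adjusted threshold (main value 4.42) was lost with the slide as a block (4.551), with the replicate block (4.204, adjusted p = 0.146) and with the compared arrays only (4.417), and leaving out 1 array gave 3.821 to 5.19. The call was lost there without WT replicate 3 or smSocs3-KO replicate 5, and the cause was not tested. Calls among the 10 genes at day 3 (main value 1) numbered 2 with normexp background, where Krt19 joined, and 0 with the slide as a block, with the replicate block and with the compared arrays only. Leaving out 1 array gave 0 to 2 calls, where 2 came without WT replicate 3 before challenge. Before challenge the count (main value 1) was 0 with the slide as a block and with the replicate block, and 0 to 1 when 1 array was left out. The 1 call was Dmkn itself, in the contrast that chose it, so nothing is read from this count. Among all genes 0.0264% were called there in the main model. The replicate block changed no other call among the 10 genes. Over all genes it called 2 at day 3, 0 in the WT challenge and 2 in the smSocs3-KO challenge, and the 8 calls of list genes at day 3 and both Prg4 challenge calls were lost with it. Marker medians kept their direction in each alternative, at 1.31 to 2.55 before challenge, 1.79 to 3.14 at day 3, -1.71 to -0.33 for the WT challenge and -0.65 to -0.05 for the smSocs3-KO challenge, except for the interaction (-0.03 to 1.27). Uncalled challenge responses near 0 changed sign: under the smSocs3-KO label Krt8 (quantile normalization -0.0167, table of the authors -0.01763, mean of probes -0.001388, replicate block -0.4425, 1 array left out -0.7172 to 0.513), Dmkn (replicate block -0.06517, 1 array left out -0.4487 to 0.5585), Lrrn4 (replicate block 0.8284, 1 array left out -0.4461 to 0.7628), Upk1b (replicate block 0.0355, 1 array left out -0.4806 to 0.2291) and Msln (replicate block 0.232), and in WT Krt18 (1 array left out -0.2606 to 0.03257). Over all genes, calls at the adjusted threshold ranged from 0 (slide as a block) to 615 (without WT replicate 4 at day 3) at day 3 (main value 253), 0 to 14 before challenge (6), 0 to 3627 for the WT challenge (1065), 2 to 1918 for the smSocs3-KO challenge (557) and 0 to 10 for the interaction (0). Signal over background limits dim probes such as those of Upk1b, Lrrn4 and Bnc1.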
